A study of Mus musculus with 6 samples.

Results

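The kinesin genes on the array, which encode motor proteins that move along microtubules, were followed from meiotic prophase into the haploid phase of mouse spermatogenesis, with and without Rnf8. Members were the genes whose symbol is Kif or Kifc followed by a digit and whose transcript cluster names no other gene. Of 17925 genes tested in all, 40 were members. Each was represented by its cluster of highest mean and kept at a log2 intensity of 6 or more on at least 1 array, and 0 members fell below that level. In both cell types 39 of them reached it, while Kif4 did so in round spermatids only. The reference table lists 39 as protein coding and Kif4-ps as a transcribed pseudogene, which is named after a motor but is not listed as one.

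RNA came from purified pachytene spermatocytes (meiotic prophase) and from round spermatids, which are haploid and no longer divide, of C57BL/6 mice that were wild type (WT) or carried a knockout of Rnf8 (RNF8-KO in the labels, KO here). Rnf8 encodes a ubiquitin ligase of the chromatin response to DNA breaks that also marks the silenced sex chromosomes in meiosis. Pachytene spermatocytes had 2 arrays per genotype and round spermatids 1 per genotype, on the Affymetrix MoGene 1.0 ST platform. Both round spermatid arrays are numbered replicate 2 in their titles. The sources used here give no age, no agent and no deleted part of Rnf8. Cells of 3 to 4 males were pooled by sedimentation, with a stated enrichment above 95%, and the labels do not say whether replicate arrays are separate preparations. The p-values therefore reflect the spread among these arrays alone, which may be technical.

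Kinesins use ATP to walk along microtubules or to shorten their ends. In dividing cells they build the spindle, move chromosomes and finish cytokinesis. In spermatids, after the last division, microtubules instead serve the manchette that shapes the nucleus, the transport of cargo and the growing flagellum. Members were grouped below by these textbook roles: 13 in cell division, 10 in cilia and flagella, 13 in cargo transport and 4 others.

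Most marker genes moved as the labelled cell types would have it, but transcripts of both marker lists were present on the arrays of both cell types. Summed intensity of the spermatid markers was 59860 to 75830 on the pachytene and 104900 to 109300 on the round spermatid arrays. That of the pachytene markers was 59470 to 66700 and then 34970 to 35390. Prm1, Prm2 and Acr differed by only 0.22, 0.23 and 0.13. The part of this in the kinesin differences was not tested. Of 19 pachytene markers 13 fell and 1 rose in round spermatids, and of 20 spermatid markers 17 rose and 0 fell in limma at an adjusted p of 0.05. The cell types parted on the first principal component (77.7% of the variance), and KO pachytene array 2 stood apart from the other pachytene arrays on the second (12.6%). The only cluster of Rnf8, shared with the readthrough gene Gm28043, had a log2 intensity of 8.51 and 8.86 on the WT pachytene arrays, 7.86 and 8.05 on the KO pachytene arrays, and 7.78 and 7.50 on the WT and KO round spermatid arrays. Median intensity ranged from 197 to 218 per array, and the number of arrays limits the precision.

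Kinesin genes moved in both directions between the cell types. In an additive limma fit of genotype and cell type, 14 of 40 rose (17.8% of all genes did) and 9 fell (17.1%) in round spermatids, and 17 did not pass an adjusted p of 0.05. That is 57.5% of the members called, against 34.9% of all genes tested. Their median log2 difference was -0.04 and that of all genes -0.06. The difference ran from -1.75 for Kif4-ps to 1.53 for Kif17, and 28 of 40 members had both round spermatid arrays outside the range of the 4 pachytene arrays, against 50.5% of all genes. In these bulk samples, fewer cells of a type and less RNA per cell cannot be told apart.

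**Figure D1:**
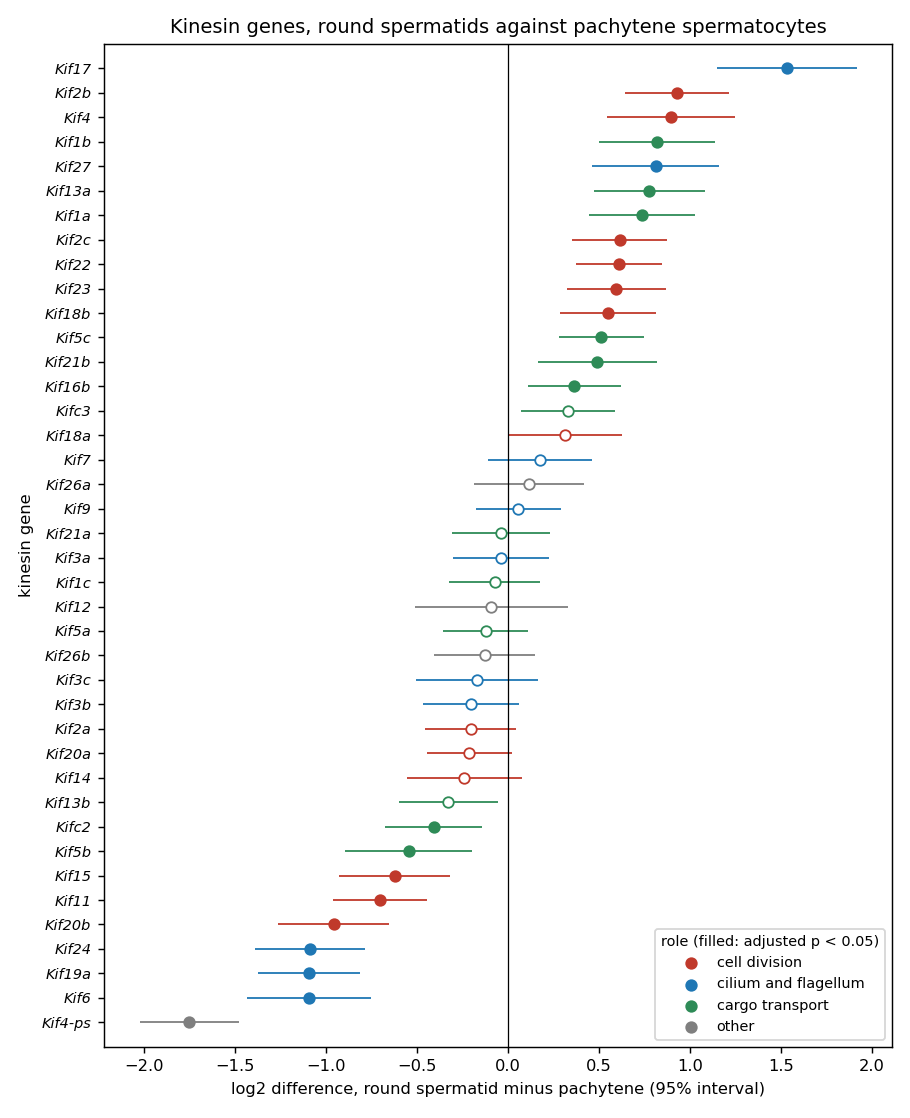
Log2 difference of each of the 40 kinesin genes between round spermatids and pachytene spermatocytes (additive limma fit, 2 against 4 arrays), with its 95% interval and coloured by role. Filled points passed an adjusted p of 0.05: 14 lie to the right of 0, led by Kif17 at 1.53, and 9 to the left, ending with Kif4-ps at -1.75, with all 4 roles among the 40 rows.

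Markers of other testis cells moved in the same comparison. Of 21 Sertoli markers 12 fell and 0 rose, with a summed intensity of 12920 to 15950 on the pachytene and 8142 to 9733 on the round spermatid arrays. Of 12 Leydig markers 9 fell and 1 rose, from 9494 to 12530 down to 4225 to 4757. Peritubular and vessel markers had 5 of 19 higher and 0 lower, with a median difference of only 0.06. Their sum, 6778 to 7377 and then 11470 to 12040, moved mainly with the smooth muscle actin gene Actg2 (0.98) and the matrix gene Dcn (2.86). Macrophage and blood markers had 4 of 15 higher and 0 lower, with a median of 0.13, and their sum, 2938 to 3360 and then 5303 to 5402, moved mainly with Aif1 (1.39). Spermatogonial markers had 6 of 26 higher and 2 lower, with a median of 0.03, and their sum was 8040 to 9216 and then 8111 to 9210. No marker is at 0 on these arrays. The part of these cells in the kinesin differences was not tested.

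Kif17 rose most. It encodes a kinesin-2 motor that works alone in cilia and whose testis form carries ACT, the coactivator of the transcription factor CREM, out of the nucleus of round spermatids. Its log2 intensity was 10.42 and 9.97 on the WT pachytene arrays, 10.56 and 10.18 on the KO pachytene arrays, 11.83 in WT round spermatids and 11.80 in KO round spermatids. Both round spermatid arrays lay well above all 4 pachytene arrays and close to each other. The rise was 1.53 (SE 0.17, 2 against 4 arrays), or 2.89-fold, at an adjusted p of 3.86e-04 in limma.

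CREM and its relatives bind the cyclic AMP response element (CRE), and the promoter windows of 31 members were searched on both strands for its letters TGACGTCA. In the 250 bases before the gene start, 2 of the 31 held it, Kif17 and Kif5c, against 1.55% of 32851 such windows in the RefSeq table (GRCm38.p6). Kif18a held it only in the 50 bases after its start. Both windows are shown because their genes rose, with the element in capitals. It lies 86 bases before the start in Kif17 (chr4:138262001-138262250, plus strand) and 26 bases before it in Kif5c (chr2:49619036-49619285, plus strand).
Kif17: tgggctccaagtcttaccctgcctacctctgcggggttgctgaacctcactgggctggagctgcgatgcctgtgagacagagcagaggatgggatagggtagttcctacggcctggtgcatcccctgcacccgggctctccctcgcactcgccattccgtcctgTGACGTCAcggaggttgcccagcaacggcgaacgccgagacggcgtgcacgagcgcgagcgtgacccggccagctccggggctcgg
Kif5c: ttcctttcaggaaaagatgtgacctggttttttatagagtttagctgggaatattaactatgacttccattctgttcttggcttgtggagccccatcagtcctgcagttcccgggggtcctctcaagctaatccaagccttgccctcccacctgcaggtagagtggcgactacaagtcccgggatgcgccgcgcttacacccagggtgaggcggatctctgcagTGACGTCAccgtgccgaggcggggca
Kif5c, a heavy chain of conventional kinesin (kinesin-1), kept to 8.05 to 8.10 on the 4 pachytene arrays and reached 8.57 (WT) and 8.61 (KO) in round spermatids. Its rise of 0.51 (SE 0.10, adjusted p = 0.00509 in limma) was small beside that of Kif17 but larger than the spread between its arrays. A match of letters describes the sequence and not a bound site. Here and below, a member counted if any of its windows held the letters, with 35 windows for the 31 members. The share of all windows counts each window.

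Of the 10 cilium and flagellum kinesins, Kif17 included, 2 rose, 3 fell and 5 did not pass. Over all genes 17.8% rose and 17.1% fell, so the count that rose is near the background. No difference from these shares was tested. Kif27, a kinesin-4 of motile cilia, was the other that rose: it measured 10.48 and 10.25 in WT and 10.53 and 10.11 in KO pachytene spermatocytes and at 11.29 and 11.02 in WT and KO round spermatids, a rise of 0.81 (SE 0.15). Neither spermatid array overlapped the pachytene ones.

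The 3 that fell act on motile cilia, on their length or on the centrioles that seed them. Kif6, a kinesin-9 of motile cilia on chromosome 17, fell 2.14-fold, from 10.13 and 10.54 in WT and 10.09 and 10.21 in KO pachytene spermatocytes to 9.40 in WT and 8.90 in KO round spermatids. Kif19a, a kinesin-8 that shortens ciliary microtubules, fell by 1.09 (SE 0.12), from 9.81 and 9.65 in WT and 9.76 and 9.99 in KO to 8.55 in WT and 8.87 in KO. Kif24, a kinesin-13 of the centriole that holds back cilium formation, also fell by 1.09 (SE 0.13), from 10.53 and 10.48 in WT and 10.74 and 10.45 in KO to 9.56 and 9.35. All 3 genes fell by slightly more than 2-fold, with adjusted p of 8.98e-04, 4.21e-04 and 5.52e-04 in limma, and in each gene the cell types did not overlap. A further cluster of Kif6, not used in the tests, lay lower in round spermatids by less, with a difference of -0.48.

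Kif3a and Kif3b, which form the kinesin-2 pair that carries material into the flagellum, did not pass. Kif3a ranged from 10.11 to 10.34 in pachytene spermatocytes, against 10.21 (WT) and 10.14 (KO) in round spermatids, a difference of -0.04 with a 95% interval of -0.30 to 0.23. Kif3b ranged from 11.33 to 11.71 and lay at 11.28 and 11.42, a difference of -0.20 with an interval of -0.47 to 0.06. Kif9, a kinesin-9 of the sperm flagellum, lay between 12.48 and 12.61 on all 6 arrays, with a difference of 0.06 (interval -0.18 to 0.29) that turned to -0.02 after a second quantile normalization. In each of the 3 genes the cell types overlapped. Kif7, of Hedgehog signalling in the primary cilium, and Kif3c had differences of 0.18 and -0.17. A further cluster of Kif7, not used in the tests, had a difference of the other sign, -0.19.

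Of 13 cell division kinesins, 6 rose, 3 fell and 4 did not pass, where 17.8% of all genes rose and 17.1% fell, so the count that fell is near the background. The 6 include Kif4, which could pass the filter only through round spermatids. Kif2b and Kif2c are kinesin-13 motors that shorten microtubules at kinetochores. Kif2b lay at 11.76 and 11.77 in WT and 12.08 and 11.79 in KO pachytene spermatocytes and at 12.79 and 12.77 in WT and KO round spermatids, a rise of 0.93 (SE 0.12, adjusted p = 8.47e-04 in limma). Kif2c lay at 11.19 and 11.02, then 11.27 and 11.13, and rose by 0.61 (SE 0.11) to 11.78 and 11.76. In both genes the WT and KO spermatid arrays differed by little and lay above every pachytene array. The relative Kif2a, which also works outside the spindle, lay at 12.06 to 12.18 in round spermatids and 12.26 to 12.39 in pachytene spermatocytes and did not pass (-0.21, adjusted p = 0.192).

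Motors of chromosome arms and of the central spindle also rose. Kif22, a chromokinesin that binds chromosome arms, ranged from 9.22 to 9.34 in pachytene spermatocytes and reached 9.88 (WT) and 9.92 (KO) in round spermatids, a rise of 0.61 (SE 0.10). Kif23, the motor of the centralspindlin complex of cytokinesis, lay at 10.29 and 10.27 in WT and 10.16 and 9.94 in KO pachytene spermatocytes and at 10.76 in both spermatid arrays, a rise of 0.59 (SE 0.12). Kif18b, a kinesin-8 of microtubule plus ends, lay between 11.07 and 11.27 and rose by 0.55 (SE 0.11) to 11.64 and 11.79. The cell types did not overlap in any of these. Kif18a, its relative that aligns chromosomes and whose mutation depletes germ cells in mice, lay at 9.37 to 9.67 and then 9.91 and 9.73 and did not pass (0.31, adjusted p = 0.116), but did with the replicate number as a block, at 0.45 (adjusted p = 0.0369), and without KO pachytene array 1, at 0.38 (adjusted p = 0.0311).

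The 3 that fell comprise 1 cytokinesis motor and both motors that push spindle poles apart. Kif20b, a kinesin-6 of late cytokinesis, lay at 9.75 and 9.85 in WT and 9.69 and 9.33 in KO pachytene spermatocytes and at 8.76 and 8.63 in WT and KO round spermatids, a fall of 0.96 (SE 0.13, adjusted p = 0.00101 in limma), while its family member Kif23 rose. Kif11, the kinesin-5 that separates spindle poles, lay at 10.45 and 10.49, then 10.37 and 10.14, and fell by 0.70 (SE 0.11) to 9.80 and 9.52. Kif15, a kinesin-12 that can stand in for Kif11, lay at 10.17 and 10.31, then 10.09 and 9.77, and fell by 0.62 (SE 0.13) to 9.52 and 9.41. The cell types did not overlap in any of the 3. Kif20a of cytokinesis and Kif14 had differences of -0.21 and -0.24 and did not pass.

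The cell cycle genes homology region (CHR), letters TTTGAA on either strand, is a promoter element of genes expressed around mitosis. It was found in the 250 bases before the start of 5 of 12 cell division members with a window and of 3 of 19 others, against 16.0% of all windows, and over members of every role 4 of 13 that rose held it, 2 of 5 that fell and 2 of 13 that did not pass. Kif1a and Kif27, which rose and hold it, are not cell division genes. With the 50 bases after the start included, the cell division genes Kif4, Kif18b and Kif23, which rose, and Kif20b, which fell, also held it. No share of all windows was counted for that longer stretch, so these genes have no background beside them. Windows of 4 cell division genes with it before the start are shown side by side, with the letters in capitals. Of these, 2 rose, Kif2c (chr4:117178773-117179022, minus strand) and Kif22 (chr7:127042421-127042670, minus strand). The other 2 fell, Kif11 (chr19:37376132-37376381, plus strand) and Kif15 (chr9:122950831-122951080, plus strand).
Kif2c: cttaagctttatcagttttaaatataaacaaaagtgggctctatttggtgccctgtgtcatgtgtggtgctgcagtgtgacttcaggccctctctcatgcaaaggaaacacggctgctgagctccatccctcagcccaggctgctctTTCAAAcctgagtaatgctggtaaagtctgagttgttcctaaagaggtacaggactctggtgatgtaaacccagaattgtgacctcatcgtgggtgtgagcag
Kif22: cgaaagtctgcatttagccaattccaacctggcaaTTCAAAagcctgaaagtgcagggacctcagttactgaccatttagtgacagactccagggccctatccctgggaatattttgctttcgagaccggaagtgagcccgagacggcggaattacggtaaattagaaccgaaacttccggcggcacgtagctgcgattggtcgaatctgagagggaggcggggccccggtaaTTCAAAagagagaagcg
Kif11: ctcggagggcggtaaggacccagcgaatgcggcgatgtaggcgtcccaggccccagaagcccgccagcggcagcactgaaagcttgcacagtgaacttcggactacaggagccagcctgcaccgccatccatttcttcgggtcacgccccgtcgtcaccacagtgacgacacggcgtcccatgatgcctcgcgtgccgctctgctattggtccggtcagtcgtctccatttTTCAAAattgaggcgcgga
Kif15: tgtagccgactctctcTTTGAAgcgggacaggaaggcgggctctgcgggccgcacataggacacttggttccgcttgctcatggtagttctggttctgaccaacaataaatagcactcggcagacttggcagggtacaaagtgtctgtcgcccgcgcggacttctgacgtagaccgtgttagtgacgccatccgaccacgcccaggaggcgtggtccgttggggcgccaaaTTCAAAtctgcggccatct
The match nearest the start lies 103 bases before it in Kif2c, 17 in Kif22 and 19 in both Kif11 and Kif15. The CCAAT box, letters CCAAT on either strand, was in the windows of 14 of 31 members against 33.8% of all windows, and the MYB letters CAACNG or TAACNG in 15 against 43.1%. The RefSeq table held no window for 9 members.

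Kif4 and Kif4-ps moved in opposite directions. Kif4 encodes a chromokinesin of condensation and the central spindle and is the only X-linked member; the X chromosome is silenced in pachytene spermatocytes. It lay at 5.65 and 5.55 in WT and 5.79 and 5.63 in KO pachytene spermatocytes, below the lower quartile of each array (6.15 to 6.28), and reached 6.79 (WT) and 6.31 (KO) in round spermatids. The difference was 0.90 (SE 0.15, adjusted p = 0.00253 in limma), but with pachytene values this dim its size is uncertain, and the gene could pass the filter only through round spermatids. The pseudogene Kif4-ps on chromosome 12 lay at 10.91 and 11.07 in WT and 10.66 and 10.86 in KO pachytene spermatocytes and at 9.16 and 9.09 in WT and KO round spermatids. It fell by 1.75 (SE 0.12), or 3.37-fold, the largest change of the 40, at an adjusted p of 1.22e-04. A further cluster of Kif4-ps differed by -1.45. How far the probes of the 2 genes take up each other's transcripts was not tested, and without both genes 13 of 38 members rose and 8 fell.

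**Figure D2:**
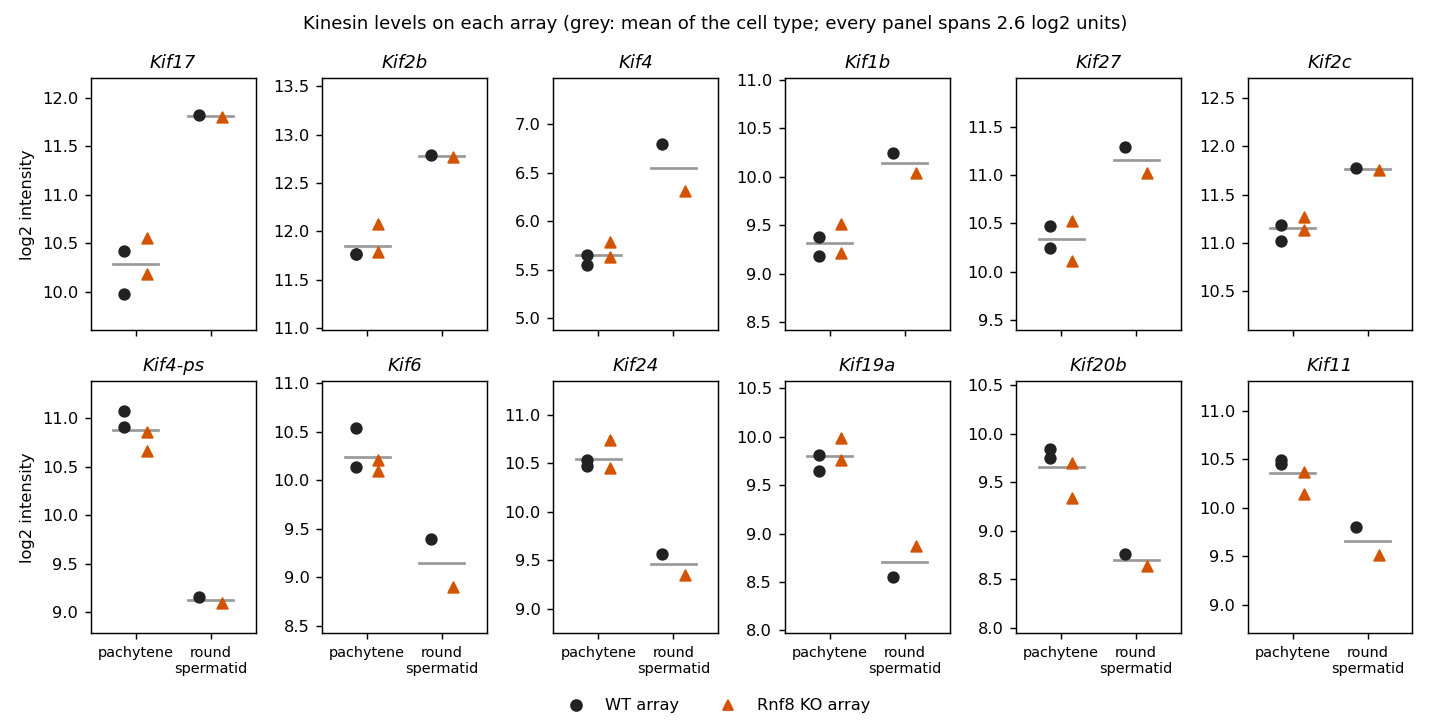
Log2 intensity on each of the 6 arrays for 6 kinesin genes that rose (top) and 6 that fell (bottom) in round spermatids; circles are WT arrays, triangles KO arrays, and the grey line is the mean of the cell type. In all 12 panels both round spermatid arrays lie outside the range of the 4 pachytene arrays, and Kif4 and Kif6 show the widest gaps between the WT and KO spermatid arrays.

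Of 13 cargo transport kinesins, 6 rose, 2 fell and 5 did not pass. The kinesin-3 family, which also includes Kif14 of the cell division group, had 4 of 7 higher and 0 lower. Against 17.8% of all genes higher and 17.1% lower, the 2 transport genes that fell are near the background, and no difference between families was tested. Kif1b, which carries mitochondria and vesicles, lay at 9.38 and 9.18 in WT and 9.51 and 9.21 in KO pachytene spermatocytes and rose by 0.82 (SE 0.14) to 10.24 (WT) and 10.03 (KO). Kif13a, which brings receptors to the cell surface, lay between 7.23 and 7.55 and rose by 0.78 (SE 0.13) to 8.20 and 8.06. Kif1a, known for synaptic vesicle precursors, lay between 7.78 and 7.94 and rose by 0.74 (SE 0.13) to 8.78 and 8.46. In these 3 genes the WT spermatid array was the highest of the 6. Kif16b of early endosomes rose by 0.37 and Kif21b, a kinesin-4 of neurons, by 0.49, with adjusted p of 0.0340 and 0.0283.

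The conventional kinesin heavy chains went separate ways. Kif5b, the widely expressed one, lay at 8.76 and 8.91 in WT and 9.03 and 8.55 in KO pachytene spermatocytes and at 8.26 and 8.28 in WT and KO round spermatids, a fall of 0.545 (SE 0.15, adjusted p = 0.0241 in limma), while Kif5c rose, as given above, and Kif5a had a difference of -0.12 (adjusted p = 0.420). Kifc2, a motor with its head at the carboxyl end, fell by 0.41 (SE 0.12), from 8.52 to 8.64 on the pachytene arrays to 8.05 and 8.32. Kifc3, Kif13b, Kif1c and Kif21a had differences of 0.33, -0.33, -0.07 and -0.04 and did not pass as tested. Among the other members, Kif12, Kif26a and Kif26b lay between -0.13 and 0.12. The best known germ cell member of this class, Kifc1, shares its only cluster with Kifc5b and stayed outside the tests: it ranged from 8.52 to 8.71 in pachytene spermatocytes, with 8.29 (WT) and 8.50 (KO) in round spermatids.

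The cell type difference had the same sign in WT and KO for 38 of 40 members, against 82.3% of all genes, and for all 23 that passed. The genotypes share no array. The 23 were called by a fit to the arrays of both genotypes, so their agreement in sign was largely set by that choice. Over the 40 members the WT and KO differences correlated at a Pearson r of 0.96, and over all genes at 0.94, which describes genes measured together on the same arrays. Kif17 differed by 1.63 in WT and 1.43 in KO, Kif2b by 1.03 and 0.84, Kif20b by -1.04 and -0.88, and Kif4-ps by -1.83 and -1.67. Kif1a differed by 0.93 and 0.55. The interaction of genotype and cell type, which tests these gaps, passed in 0 members and 0 genes in limma (0% called, 130 genes and 0 members at an unadjusted p under 0.05). For Kif1a it was -0.38 with an interval of -0.99 to 0.22, and Kif4, dim in pachytene spermatocytes, gives no reliable size. The interval stayed within 2-fold for 36 of 40 members.

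**Figure D3:**
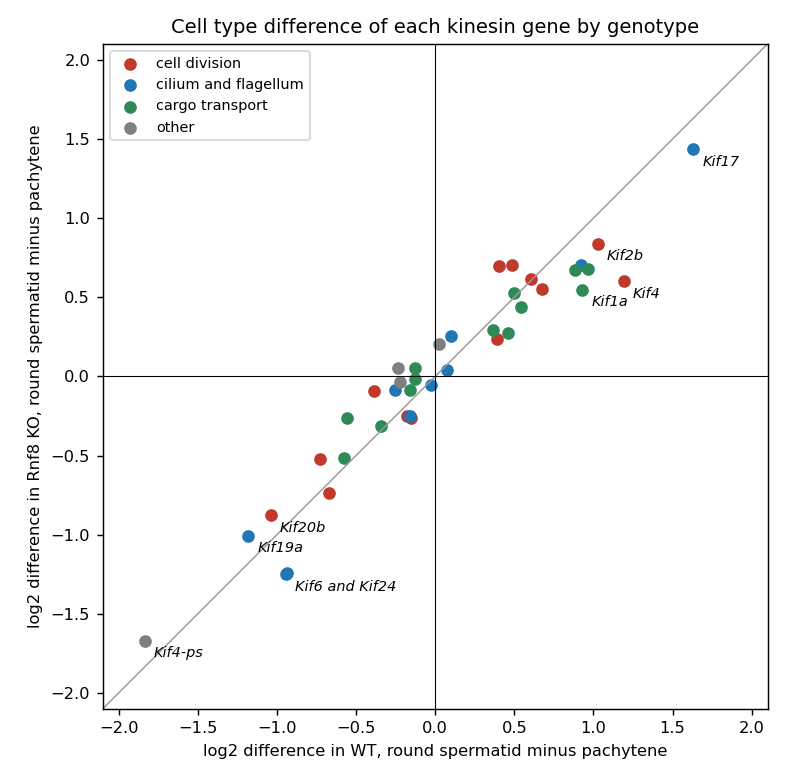
Log2 difference between round spermatids and pachytene spermatocytes of each of the 40 kinesin genes in Rnf8 KO (vertical) against WT (horizontal), coloured by role; the diagonal marks equal differences, and WT and KO share no array. Points lie near the diagonal (Pearson r 0.96 over 40 genes), with Kif1a at 0.93 in WT and 0.55 in KO among those below it. Kif4 (1.19 and 0.60) is dim in pachytene spermatocytes, so its place is uncertain.

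The cell type calls rest on single spermatid arrays. The count over all genes also changed when 1 array was left out, as given at the end. Whether the kinesin losses and gains below differ from that was not tested. Without the WT round spermatid array 10 of 40 members passed, and without the KO one 15 did. Kif17, Kif2b, Kif11, Kif20b, Kif24, Kif19a, Kif6 and Kif4-ps, 8 in all, passed when either was left out and under each other setting run. Of the rest, Kif13a, Kif15, Kif1a, Kif1b, Kif27, Kif2c and Kif4 lost their call without the WT spermatid array, Kif18b and Kif23 without the KO one, and Kif16b, Kif21b, Kif22, Kif5b, Kif5c and Kifc2 without either. Kif16b, Kif21b, Kif5b and Kifc2 also lost it without WT pachytene array 1 or array 2, and Kif16b without KO pachytene array 2. With the replicate number as a block, Kif16b, Kif5b and Kifc2 no longer passed. Both spermatid arrays are numbered 2, so the block in effect compares them with the pachytene arrays numbered 2. Calls were gained too: Kif12, Kif13b, Kif18a, Kif3c and Kifc3 passed without KO pachytene array 1 (28 of 40 in all), Kif13b, Kif20a and Kif2a after a second quantile normalization, Kifc3 with a trended and robust prior, and Kif18a with the block.

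Partners of the motors also moved in both directions, with 17.8% of all genes higher and 17.1% lower in this comparison, and whether these lists differ from that background was not tested. The list of 15 kinesin light chains and partners also holds Cenpe, a kinesin motor gene without a Kif symbol. Of the 15, 3 rose and 3 fell (median 0.16). Kifbp, which binds kinesin motor domains and blocks them, rose by 1.08 (SE 0.14), and Kifap3, the non-motor subunit that joins Kif3a and Kif3b, by 0.83 (SE 0.15), from 10.64 to 11.08 on the pachytene arrays to 11.68 on both spermatid arrays. Mapk8ip1, a scaffold that links cargo to kinesin-1, rose by 0.62, and the kinetochore gene Kntc1 fell by 0.90. Among 26 genes of cytoplasmic dynein, the motor that walks the opposite way, and dynactin, 6 rose and 5 fell (median 0.07), with the dynein light chain genes Dynlrb1 at 0.92 and Dynlt3, from 8.23 to 8.92 in pachytene spermatocytes and 9.94 and 9.26 in round spermatids, the dynactin subunit gene Dctn5 at -1.02 and the light intermediate chain gene Dync1li1 at -0.80. Among 21 intraflagellar transport genes 3 rose and 6 fell (median -0.20), with Ttc30a1 at -1.79, Ift80 at -1.59, Ift20 at -0.73 and Ttc21b at -0.68. Of 17 tubulins 6 rose and 3 fell (median -0.09), with Tubb6 at 1.45, Tuba8 at 1.09, Tuba4a at 0.90 and Tube1 at -0.75. All of these named genes passed an adjusted p of 0.05 in the additive limma fit.

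Loss of Rnf8 was followed by no kinesin call. In pachytene spermatocytes 0 of 40 members passed for KO against WT in limma, and 0 at an unadjusted p under 0.05, where 0% of all genes passed and 430 lay under that unadjusted p. Differences ran from -0.31 to 0.23, and the 95% interval of every member stayed within 2-fold, from -0.72 for Kif15 to 0.67 for Kif17. The KO and WT arrays did not overlap for 9 of 40 members (3 higher and 6 lower in KO), against 25.0% of all genes. Over both cell types the additive fit also passed 0 members and 0 genes (0% called, 0 members and 979 genes at an unadjusted p under 0.05). The smallest adjusted p of a member was 0.892. Here too all 40 intervals stayed within 2-fold, and 38 within 1.5-fold.

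In pachytene spermatocytes the 3 lowest differences under KO were those of Kif15, Kif20b and Kif23, while over both cell types the lowest was that of Kif6 (-0.29), whose arrays overlap. Kif15, given above, differed by -0.31 (SE 0.17) in pachytene spermatocytes and by -0.11 between the spermatid arrays, Kif20b by -0.29 (SE 0.17) and -0.13, Kif11 by -0.22 (SE 0.16) and -0.28, and Kif23 by -0.23 (SE 0.15) and -0.01. Kif4-ps differed by -0.23 and -0.07. In these 5 genes each KO array lay below the WT arrays of its cell type, which held for 5 of 40 members against 7.09% of all genes. On the other side, Kif3b differed by 0.23 (SE 0.16) and 0.14 and Kif5a by 0.17 (SE 0.14) and 0.25, with each KO array above the WT arrays, as for 10.9% of all genes. Kif2b differed by 0.17 (SE 0.16) in pachytene spermatocytes and by -0.02 between the spermatid arrays. In both cell types and either direction the arrays did not overlap for 7 of 40 members, against 18.0% of all genes. Of the 13 cell division members 10 lay below WT over both cell types, against 6775 of all 17925 genes. Their median was -0.08, against 0.04 for all genes. Below WT were also 6 of 10 cilium and flagellum and 6 of 13 cargo transport members. None of these differences passed the test.

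Between the KO and the WT round spermatid array, 0 of 40 members differed by 1.5-fold or more. Since 1.91% of all genes did, and 0.385% by at least 2-fold, this count is near the background and says nothing particular about kinesins. These are single arrays with no replicate check, so no p-value is read from them. A limma fit with 4 groups, in which the spread comes from the pachytene arrays only, passed 0 genes. Lowest in KO were Kif6 (9.40 in WT and 8.90 in KO, -0.50), Kif4 (6.79 and 6.31, with the KO value near the lower quartile of its array, 6.17, so no fold is given), Kif1a (8.78 and 8.46) and Kif11 (9.80 and 9.52). The further cluster of Kif6 read 8.54 (WT) and 8.52 (KO), and with the clusters averaged the difference was -0.26. Highest in KO were Kif12 (6.81 in WT and 7.22 in KO), Kif26b (7.40 and 7.72), Kif19a (8.55 and 8.87) and Kif21a (7.34 and 7.63). Kif17, Kif2b and Kif2c each differed by -0.02 and Kif23 by -0.01.

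**Figure D4:**
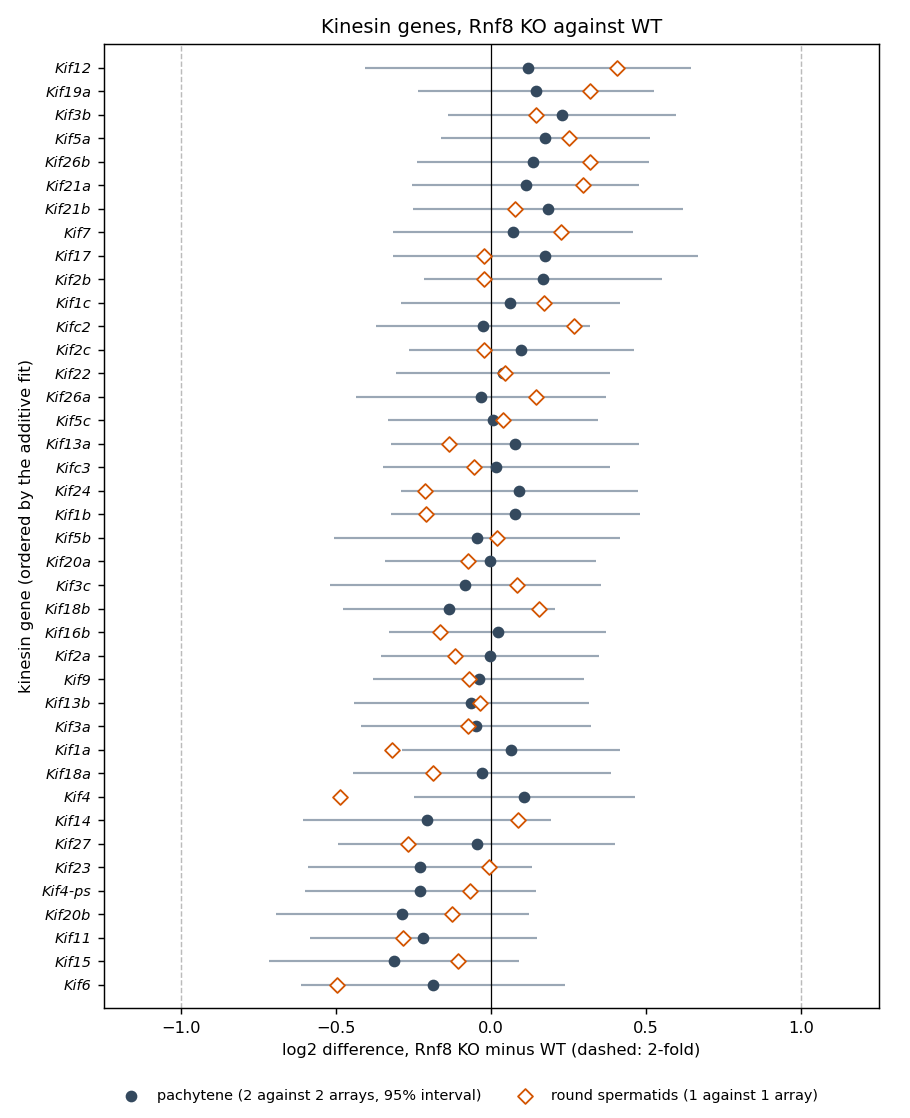
Log2 difference between Rnf8 KO and WT of each kinesin gene, ordered by the additive fit, in pachytene spermatocytes (filled circles with 95% interval, 2 against 2 arrays) and in round spermatids (open diamonds, 1 against 1 array). All intervals and all diamonds lie between the dashed 2-fold lines, with Kif6 at -0.50 and Kif12 at 0.41 the outermost diamonds.

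Some lists of markers of other cells leaned with genotype. Over both cell types 24 of 26 spermatogonial, 21 of 21 Sertoli and 17 of 19 peritubular and vessel markers lay above WT, with medians of 0.16, 0.15 and 0.15. Leydig markers did not lean that way (5 above and 7 below, median -0.04), macrophage and blood markers had 10 above and 5 below (median 0.05), and over all genes 11150 of 17925 lay above WT (median 0.04). No marker of these lists passed. Summed intensity of the spermatogonial list was 8040 to 8345 in WT and 8781 to 9216 in KO pachytene arrays, of the Sertoli list 12920 to 14960 and 15590 to 15950, and of the peritubular and vessel list 7171 to 7377 and 6778 to 7118, so this last sum leaned the other way. Their part in the small kinesin differences was not tested.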

How the data were processed

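Transcript levels were measured on 6 Affymetrix MoGene 1.0 ST arrays. The authors deposited linear intensity values made by RMA in Affymetrix Expression Console 1.1, per the submitters' processing notes. The sources used here give no options, build or batch. Tests were planned on the log2 scale, and the deposited intensity was converted to it. Of 35556 clusters, 21789 carry 1 gene symbol in the platform annotation, 1621 several and 12146 are not listed, and 21698 matched the RefSeq gene table (GRCm38.p6) by gene ID. For the 999 genes with several clusters the one of highest mean was used. Groups came from the sample titles.

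Tests used limma 3.58.1 in R 4.3.3 (lmFit, eBayes, Benjamini-Hochberg over 17925 genes, threshold 0.05). The additive fit had 3 residual degrees of freedom, to which the spermatid arrays also contribute. It counts any difference between genotypes in the cell type change as spread. The fit with 4 groups had 2, all from the pachytene pairs, and gave the pachytene contrast and the interaction. That fit takes the spread of the single spermatid arrays to be that of these pairs. Scripts were tested on simulated data. Alternatives were the filter, a second quantile normalization, the prior, averaged clusters, the replicate number as a block and each array left out.

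Members and lists were chosen with earlier results of these data known. Values are given for members past the threshold, for the 4 largest differences per direction between genotypes without overlap and between the spermatid arrays, and for Kif17, Kifc1, Kif3a, Kif3b, Kif18a, Kif11, Kif23, Kif20b, Kif2c and Kif9. Other members are given by their differences, and of each related list the 4 largest past the threshold. Promoter motifs and windows were chosen after the values were seen.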

Additional observations from a re-analysis of the deposited data

Results flagged for a closer look

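For 2 kinesin genes the KO pachytene arrays all lay on one side of the WT arrays and the KO round spermatid array on the other side of its WT array. Kif2b lay at 12.08 and 11.79 in KO against 11.76 and 11.77 in WT pachytene spermatocytes, and at 12.77 in KO against 12.79 in WT round spermatids, an interaction of -0.19 with a 95% interval of -0.85 to 0.47. Kif18b lay at 11.13 and 11.07 in KO against 11.27 and 11.20 in WT pachytene spermatocytes, and at 11.79 in KO against 11.64 in WT round spermatids, an interaction of 0.29 with an interval of -0.30 to 0.88. Neither interaction passed the limma test (adjusted p of 1.00 for each).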

How the results depend on the processing

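The count of kinesin genes that differed between the cell types was 23, lay between 21 and 26 under the other filters, the second quantile normalization, the trended and robust prior, averaged clusters and the replicate block (21), and between 10 and 28 when 1 array was left out. Over all genes it was 6255, with 5375 under the replicate block and 2786 to 8849 with 1 array left out. Kif9 turned to -0.0191 under the second quantile normalization, and Kif3a (-0.04) ranged from -0.084 to 0.0032 with 1 array left out, the latter without WT pachytene array 2. For KO against WT in pachytene spermatocytes 0 kinesin genes passed under each alternative; leaving out an array leaves 1 in its arm and the spread to the other pair, so 0 there, KO pachytene array 2 included, says nothing about stability. Over all genes 43 passed with the replicate block, 88 with a crossed replicate block, which was added after seeing the data, and 0 to 2 with 1 array left out. Deviations of same-numbered pachytene arrays correlated at -0.23, so the numbers gave no sign of pairing. Over both cell types and for the interaction, 0 kinesin genes passed under each alternative, while over all genes 2 passed with the trended and robust prior, 2 with the replicate block and 0 to 21 with 1 array left out, and for the interaction 1 with the replicate block. Between the round spermatid arrays 69 genes differed by at least 2-fold, 343 by at least 1.5-fold and 0 passed in the limma fit with 4 groups, and 0 kinesin genes in each. In that pair the difference of Kif21a became 0.17 after the second quantile normalization. Averaging clusters left 39 members, and requiring log2 7 left 38, without Kif4.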
